A study of Mus musculus with 6 samples.

Results

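The genes described here encode the machinery that brings proteins into mitochondria and folds them there. They were chosen by symbol from the RPKM table: every gene whose symbol starts with Timm or Tomm followed by a digit (26 genes) and 15 genes named singly, Hspa9, Hspd1, Hspe1, Trap1, Grpel1, Grpel2, Dnaja3, Dnajc19, Pmpca, Pmpcb, Mipep, Chchd4, Gfer, Phb and Phb2. This gave 41 of the 24537 genes in the table. No measured value entered that rule.

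RNA sequencing compared 3 control libraries (CTL, vehicle, no 4CBA) with 3 libraries from cells given 4 mM 4-chlorobenzoic acid (4CBA), an inhibitor of the enzyme COQ2 that blocks the synthesis of coenzyme Q (CoQ), the lipid that carries electrons in the respiratory chain. The cells of both groups came from 1 immortalized mouse line of brown preadipocytes that was differentiated into brown adipocytes, with treatment started late in differentiation. The labels give 48 h of treatment and the paper a shorter time, and which of them applies was not settled. The paper's methods state that independent replicates were pooled to generate RNA, and its figure legend gives 3 independent experiments per treatment. How the libraries relate to these is unclear. The p-values therefore measure the spread between these 3 libraries per group, which may be technical.

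Most mitochondrial proteins are made in the cytosol and cross the outer membrane through the TOM complex. Small TIM chaperones then guide membrane proteins through the intermembrane space, TIM22 inserts carrier proteins into the inner membrane, and TIM23 passes proteins with a presequence into the matrix, where a motor built on the Hsp70 chaperone mortalin pulls them in. Peptidases remove the presequence and chaperonins fold the product. Brown adipocytes are rich in mitochondria and take up uncoupling protein and respiratory chain subunits by these routes. Cells can respond to unfolded protein in the matrix by raising matrix chaperones and proteases, the mitochondrial unfolded protein response, for which Hspa9, Hspd1, Hspe1 and Lonp1 are commonly used as readouts.

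RNA of most of these genes was lower with 4CBA, while a short list that includes the Hsp70 of the import motor and one of its exchange factors was higher. Of the 41 genes, 40 passed the filter on low values (an RPKM, the read count scaled by exon length and library depth, of 0.5 or more in 3 or more libraries). Of these, 30 were called lower and 6 higher by limma on log2(RPKM + 1) at an adjusted p under 0.05, and 4 did not pass. Without the antisense transcript Tomm6os, 29 of 39 genes (74.4%) were called lower. Over all 12659 genes tested, 30.0% were called lower, 38.4% higher and 68.4% in either direction, so that 75.0% of the import and chaperone genes called lower stood beside 30.0% of all genes, and 15% called higher beside 38.4%. Every called gene had groups that did not overlap (30 with all 4CBA libraries below all CTL libraries and 6 with all above), against 31.8% and 40.9% of all genes tested. As a median, the 40 genes had a log2 fold change of −0.48, and all genes tested one of 0.06. Of all called genes, 56.1% were higher, and 45.7% with libraries scaled to the same median, a setting in which 31 of the 40 import and chaperone genes were lower and 4 higher.

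The changes were mostly moderate. Of the 40 genes tested, only Trap1 and Tomm40l were at least 2-fold lower by the ratio of mean RPKM, and only Grpel2 at least 2-fold higher. Summed over the 41 genes, RPKM was 2557, 2441 and 2446 in the CTL libraries and 1992, 2029 and 1898 in the 4CBA libraries, 1.26-fold lower, and 1.40-fold lower without Hspa9. All 4CBA sums lay below all CTL sums.

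**Figure D1:**
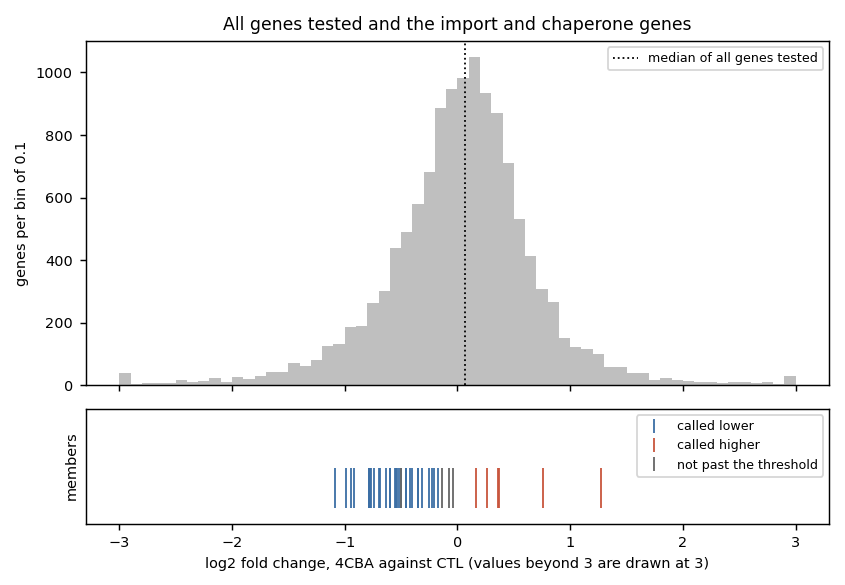
The upper panel shows the number of genes per bin of log2 fold change (4CBA against CTL, on log2(RPKM + 1)) for the 12659 genes tested, and the lower panel marks each of the 40 import and chaperone genes at its own value, coloured by call. The 30 genes called lower lie left of 0 and the 6 called higher lie right of it, and the dotted line is the median of all genes tested, 0.06.

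Depth, estimated from the spacing of low RPKM values, was between 9360000 and 12200000 reads per library. The summed RPKM of 10 markers of brown adipocytes and of adipocytes in general was 10480 to 11030 in CTL and 5202 to 6503 in 4CBA. Most of this sum was Fabp4, a general adipocyte gene, with means of 8620 RPKM in CTL and 4846 RPKM in 4CBA. Of the 9 tested markers, 8 were lower (Ucp1 16.3-fold). The sum of 6 preadipocyte and fibroblast markers was 87.8 to 98.7 in CTL and 38.4 to 41.5 in 4CBA. The macrophage markers Adgre1, Itgam and Ptprc, the endothelial marker Cdh5 and the muscle markers Myod1, Myog, Myh4 and Myf5 were listed at 0 in every library. The summed macrophage list was at most 0.792 RPKM and the endothelial list at most 0.418 RPKM in any library, and the muscle list was at 0.215 to 0.331 RPKM in CTL and at 3.997 to 5.363 RPKM in 4CBA, nearly all of it Acta1. The part of the lower adipocyte markers in the results was not tested, and in bulk RNA fewer cells of a type cannot be told apart from less RNA per cell.

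Of the 41 genes, 36 had an entry in the RefSeq promoter table (GRCm38.p6), which holds the 250 bases before and 50 bases after a start site, and Grpel2, Hspa9, Timm21, Tomm40l and Tomm7 had none. The letters CCGGAAG, the core bound by ETS factors such as GABP, which is known as a regulator of nuclear genes for mitochondrial proteins, stood on either strand in 16 of the 36 genes (44.4%), in 9.93% of the 27025 genes of the table and in 20.4% of the 9633 tested genes with an entry. They were in 11 of the 27 matched genes called lower and in 2 of the 4 called higher. The NRF1 letters GCGCANGCG were in 7 of 36 (19.4%), against 7.03% and 15.8%. The sequences below were chosen to show these letters beside genes of both directions. Each is the stretch before the start site that holds no annotated exon, 5′ to 3′ on the strand of the gene, with ETS or NRF1 letters of either strand in capitals. Tomm22, Tomm70a, Timm8b, Phb2 and Tomm20 were called lower, and Dnaja3 and Tomm34 higher.
Tomm22, chr15:79670768-79670860, plus strand, ETS on both strands: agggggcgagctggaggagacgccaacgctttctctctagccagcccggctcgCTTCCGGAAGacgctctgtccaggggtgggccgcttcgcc
Tomm70a, chr16:57121614-57121702, plus strand, ETS: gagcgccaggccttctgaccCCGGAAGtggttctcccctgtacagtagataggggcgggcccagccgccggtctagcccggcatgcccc
Timm8b, chr9:50603813-50603900, plus strand, ETS: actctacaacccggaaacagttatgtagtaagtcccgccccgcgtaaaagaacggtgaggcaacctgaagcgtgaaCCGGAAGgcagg
Phb2, chr6:124712189-124712288, plus strand, ETS: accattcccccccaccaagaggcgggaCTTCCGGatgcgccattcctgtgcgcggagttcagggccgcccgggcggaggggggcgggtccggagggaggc
Tomm20, chr8:126945922-126946021, minus strand, NRF1: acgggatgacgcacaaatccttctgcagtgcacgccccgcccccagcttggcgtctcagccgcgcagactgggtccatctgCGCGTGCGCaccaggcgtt
Dnaja3, chr16:4683970-4684069, plus strand, NRF1: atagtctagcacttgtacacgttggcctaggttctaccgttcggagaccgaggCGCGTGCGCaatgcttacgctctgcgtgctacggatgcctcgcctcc
Tomm34, chr2:164071170-164071269, minus strand, ETS: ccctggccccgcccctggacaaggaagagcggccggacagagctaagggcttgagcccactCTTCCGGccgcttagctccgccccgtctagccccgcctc

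Letters linked to stress-response factors were also searched on both strands. The C/EBP-ATF letters TGATGNAA, a form of the element bound by ATF4 with C/EBP partners, were in 0 of the 36 genes, in 4.51% of all genes of the table and in 2.68% of tested genes. The CHOP core TGCAAT was in 4 of 36 (11.1%), Hspd1, Hspe1, Pmpcb and Timm17b, against 9.67% of all genes and 6.49% of tested genes. All 4 were called lower, as were 27 of the 36 matched genes. The windows of Hspd1 and Hspe1 overlap, and their CHOP matches are the same site. The CCAAT box was in 13 of 36 (36.1%), against 41.1% of all genes and 43.5% of tested genes. The heat shock letters TTCNNGAA, added after the sequences had been read, were in 9 of 36 (25.0%), against 9.60% of all genes and 8.24% of tested genes, and overlap the ETS letters where both strands match (CTTCCGGAAG). The ETS and heat shock matches of Hspd1 and Hspe1 are likewise shared sites that count for both genes. A match is a description of the letters and not evidence of a bound site.

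**Figure D2:**
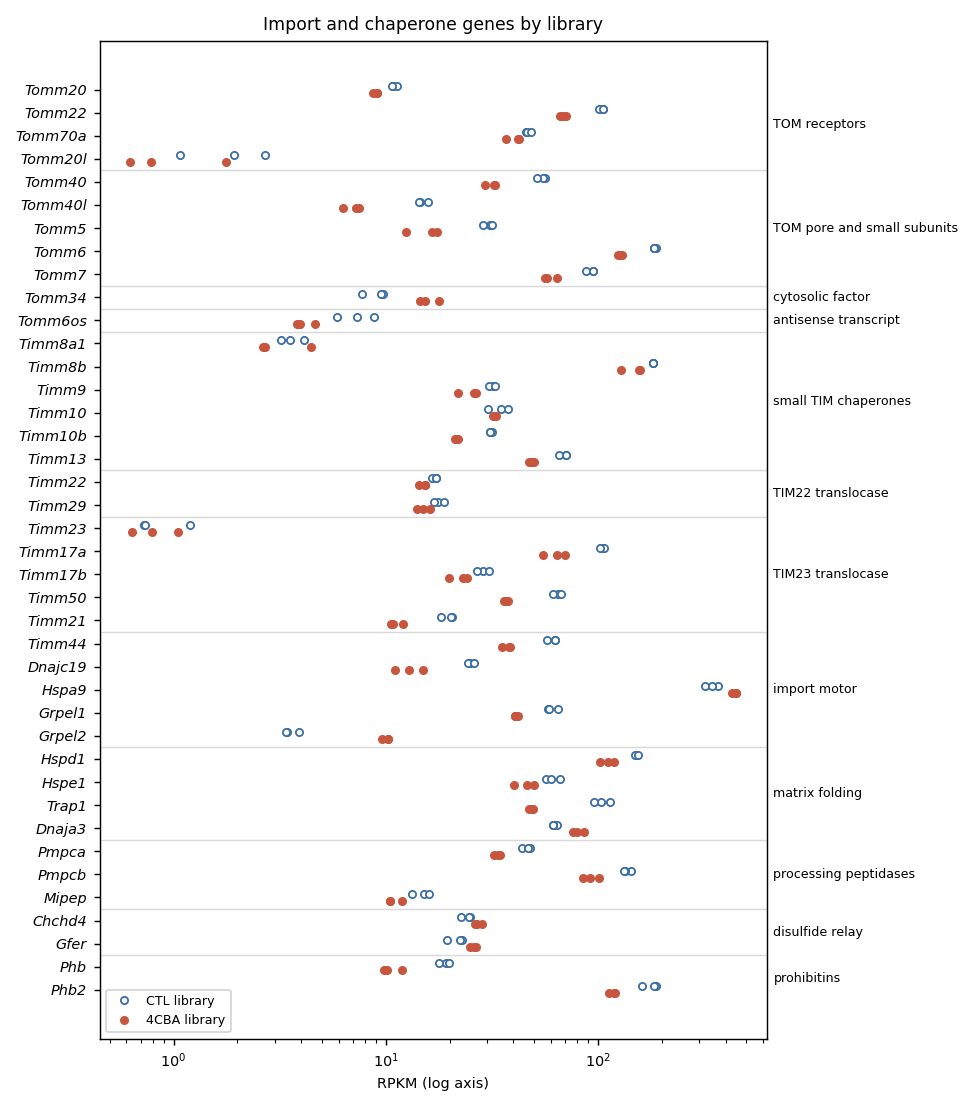
Each row is a gene, grouped by role, and each point is the RPKM of 1 library on a log axis, open for CTL and filled for 4CBA, for the 40 genes tested. Filled points lie left of open points for 30 genes and right of them for 6, among them Grpel2, whose 4CBA libraries sit near 10 RPKM against under 4 RPKM in CTL.

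At the outer membrane, all 5 tested genes of the pore and its small subunits were lower (median log2 fold change −0.76), as were 3 of the 4 receptor genes (median −0.38). Tomm40, the channel (chromosome 7, 19701313 to 19715438, GENCODE annotation of GRCm38, as for all gene positions), was at 56.2, 54.9 and 51.7 RPKM in CTL and at 29.5, 32.4 and 32.7 RPKM in 4CBA (1.72-fold lower, log2 fold change −0.76, SE 0.059, adjusted p = 3.41e-07 from limma). The 3 treated libraries lay far below the 3 controls. Tomm40l, a paralogue of the channel, went from 15.9, 14.5 and 14.3 RPKM to 7.25, 7.51 and 6.30 RPKM (2.12-fold lower, adjusted p = 3.27e-07). The deposited transcript of Tomm40l shares 68.9% of its bases with annotated transcripts of Nr1i3, so reads of both may be mixed. Tomm5, a small subunit of the pore, went from 31.1, 31.6 and 28.7 RPKM to 12.4, 17.4 and 16.5 RPKM (1.97-fold lower, adjusted p = 3.18e-05). The 4CBA libraries of Tomm5 varied more than the CTL ones, with replicate 1 the lowest, and the groups did not overlap. The other small subunits, Tomm6 (185 ± 3.26 to 128 ± 2.51 RPKM, SD, n = 3 each) and Tomm7 (92.6 ± 4.20 to 59.6 ± 4.22 RPKM, SD, n = 3 each), were 1.45-fold and 1.56-fold lower. Tomm6os, an antisense transcript that overlaps Tomm6, was 1.77-fold lower, and since no strand option is named in the counting command, reads of this pair cannot be told apart. Transcripts of Gm21981 and Tomm6os share 87.6% of the Tomm6 transcript.

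The receptors differed in size of change. Tomm22, the central receptor, was at 105, 101 and 106 RPKM in CTL and at 68.7, 70.8 and 66.0 RPKM in 4CBA (1.52-fold lower, log2 fold change −0.60, SE 0.051, adjusted p = 8.04e-07). Tomm20, which recognises presequences, went from 10.9, 11.3 and 10.7 RPKM to 9.15, 9.13 and 8.74 RPKM (1.22-fold lower, adjusted p = 0.00325). Tomm70a, the receptor for carrier proteins and a docking site for cytosolic chaperones, went from 46.0, 46.6 and 48.2 RPKM to 42.1, 42.3 and 36.9 RPKM (1.16-fold lower, adjusted p = 0.00922). For both, every treated library was below every control, by a margin smaller than for Tomm22. Tomm20l, a relative of Tomm20 with an estimated 3.9 to 18.5 reads per library, was at 1.93, 2.69 and 1.08 RPKM against 1.76, 0.623 and 0.781 RPKM, with overlapping groups (adjusted p = 0.153), and its call turned to lower without CTL replicate 3 (adjusted p = 0.0262) or without 4CBA replicate 1 (adjusted p = 0.0185). Tomm34, a cytosolic protein that binds Hsp70 and Hsp90 and precursor proteins and is not a subunit of the TOM complex, was the only gene with a Tomm symbol that was called higher. It was at 9.71, 7.75 and 9.54 RPKM in CTL and at 15.4, 14.5 and 17.9 RPKM in 4CBA (1.77-fold higher, log2 fold change 0.76, SE 0.095, adjusted p = 2.42e-05), with all treated libraries above all controls.

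**Figure D3:**
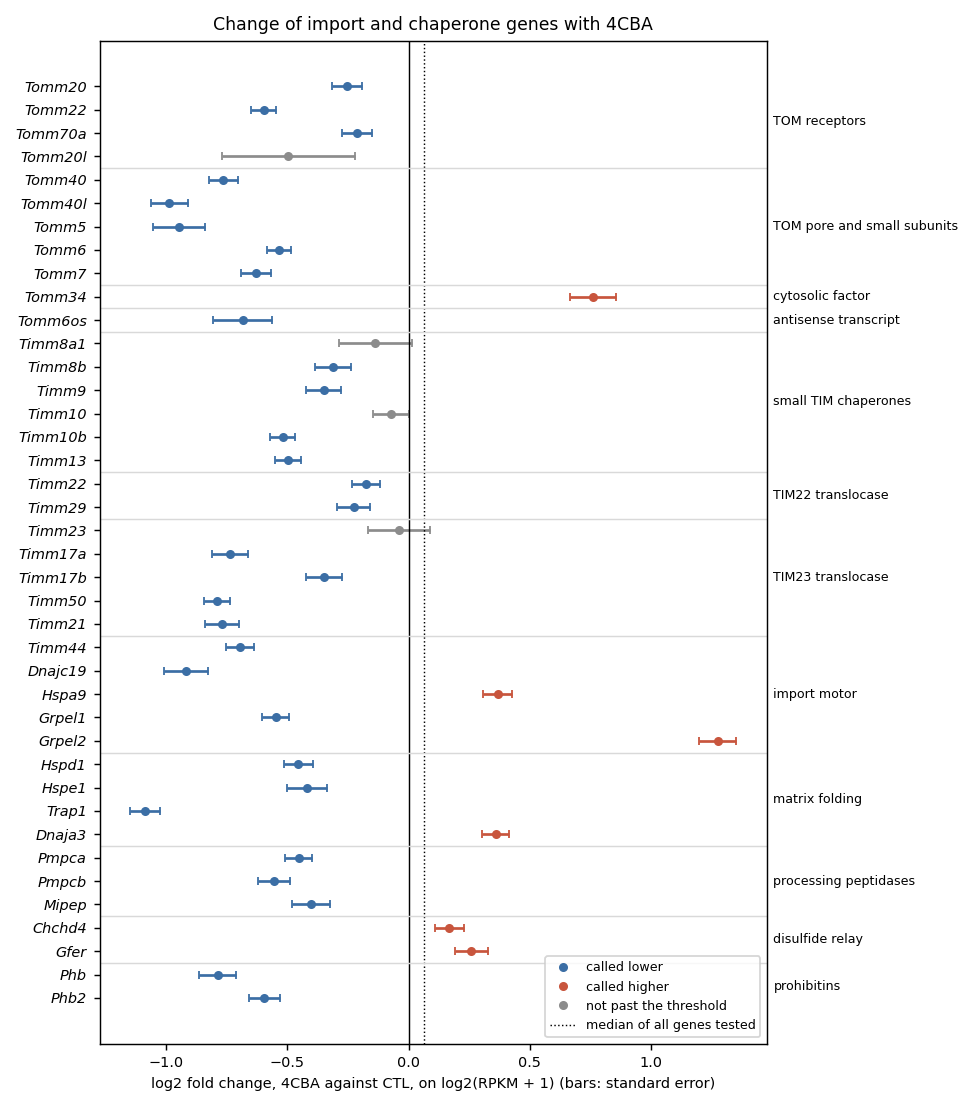
Points are log2 fold changes (4CBA against CTL, on log2(RPKM + 1)) and bars are standard errors, for the 40 genes tested, grouped by role and coloured by call. Genes of the TOM receptors, TOM pore, small TIM chaperones, TIM22 and TIM23 translocases, processing peptidases and prohibitins all lie left of 0, as does Tomm6os. Both disulfide relay genes and Tomm34 lie right of 0, and the import motor and matrix folding genes lie on both sides. Grpel2 (1.28) and Trap1 (−1.09) mark the extremes.

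Of the 7 small TIM genes, whose proteins chaperone membrane proteins across the intermembrane space, 4 were lower, 2 did not pass the test and 1 was too low to test. Timm13 went from 70.5, 71.0 and 65.4 RPKM to 48.3, 50.1 and 47.3 RPKM (1.42-fold lower, log2 fold change −0.50, SE 0.054, adjusted p = 6.13e-06). Timm8b, another small TIM chaperone, went from 183, 183 and 182 RPKM to 158, 156 and 129 RPKM (1.24-fold lower, adjusted p = 0.0025). The groups were apart for both, and 4CBA replicate 3 was the lowest for Timm8b. Timm9, which forms a hexamer with Timm10, went from 32.2, 30.9 and 32.8 RPKM to 26.6, 26.2 and 21.99 RPKM (1.28-fold lower, adjusted p = 0.00103). Timm10 itself was at 37.8, 30.4 and 35.1 RPKM in CTL and at 31.9, 32.5 and 33.3 RPKM in 4CBA (log2 fold change −0.07, SE 0.073, adjusted p = 0.393). The treated libraries of Timm10 lay within the range of the controls, and CTL replicate 2 was the lowest of all 6. Without that library the value was −0.16 (adjusted p = 0.0459), a call. Timm10b, which couples the small TIM proteins to TIM22, went from 31.7, 31.1 and 31.0 RPKM to 21.4, 21.8 and 21.2 RPKM (1.45-fold lower, adjusted p = 2.82e-06), although 53.0% of its transcript is shared with Gm45799. Timm8a1, whose human counterpart is mutated in deafness-dystonia, was at 3.20, 4.11 and 3.56 RPKM against 2.70, 4.45 and 2.65 RPKM (adjusted p = 0.439), with overlapping groups and 43.1% of its transcript shared with Gm9797. Without 4CBA replicate 2, the highest library, it was called lower (log2 fold change −0.33, adjusted p = 0.0245). Timm8a2 was at 0.089, 0 and 0.116 RPKM in CTL, about 1 read in each of replicates 1 and 3, and was listed at 0 in every 4CBA library.

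Both genes of the rule grouped under the TIM22 carrier translocase were lower by small amounts. Timm22, its channel, went from 16.6, 17.3 and 17.3 RPKM to 15.3, 15.3 and 14.4 RPKM (1.14-fold lower, log2 fold change −0.17, SE 0.058, adjusted p = 0.0183). The groups did not overlap, but leaving out CTL replicate 2, CTL replicate 3 or 4CBA replicate 3 ended the call (adjusted p = 0.0513, 0.0519 and 0.0546). Timm29, a subunit of the same complex in mammals, went from 17.7, 16.9 and 18.8 RPKM to 14.0, 15.02 and 16.2 RPKM (1.18-fold lower, adjusted p = 0.0113). Agk, a further subunit that lies outside the rule, did not pass (log2 fold change −0.035, adjusted p = 0.728 from limma), with overlapping groups.

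Of the 5 genes of the TIM23 presequence translocase, 4 were lower (median −0.74). Timm50, the receptor that takes over presequences from TOM (chromosome 7, 28305516 to 28312072), was at 64.7, 67.3 and 61.4 RPKM in CTL and at 37.6, 36.1 and 36.9 RPKM in 4CBA (1.75-fold lower, log2 fold change −0.79, SE 0.053, adjusted p = 1e-07). Timm21, which links TIM23 to TOM and to the respiratory chain, went from 19.7 ± 1.23 to 11.1 ± 0.782 RPKM (SD, n = 3 each, 1.77-fold lower). In both, the treated libraries stood well below the controls. The pore partners Timm17a and Timm17b are alternative subunits of the translocase. Timm17a went from 106, 107 and 102 RPKM to 69.7, 64.1 and 55.3 RPKM (1.67-fold lower, log2 fold change −0.74, SE 0.075, adjusted p = 4e-06). Timm17b went from 28.7, 30.7 and 27.0 RPKM to 23.2, 24.1 and 20.0 RPKM (1.28-fold lower, log2 fold change −0.35, SE 0.076, adjusted p = 0.00147). Timm17b thus made up 21.3%, 22.2% and 20.9% of their joint RPKM in CTL and 24.9%, 27.4% and 26.5% in 4CBA, with no overlap. The channel gene Timm23 itself was read at 1.196, 0.723 and 0.732 RPKM in CTL and 1.05, 0.796 and 0.639 RPKM in 4CBA, an estimated 8.0 to 17.1 reads per library (adjusted p = 0.799). Its transcript shares 95.6% of its bases, at 95% identity or more, with transcripts of 6 other annotated genes, so its value is uncertain and says little about the level of the RNA.

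The import motor held both the largest rise and several falls. Of its 5 genes, 3 were lower and 2 (40.0%) higher, the latter near the 38.4% of all genes tested. Hspa9, which encodes mortalin, the Hsp70 that pulls precursors into the matrix (chromosome 18, 34937414 to 34954357), had the highest RPKM of the 41 genes. It was at 369, 319 and 344 RPKM in CTL and at 450, 450 and 431 RPKM in 4CBA (344 ± 25.0 to 444 ± 10.97 RPKM, SD, n = 3 each, 1.29-fold higher, log2 fold change 0.37, SE 0.059, adjusted p = 0.000157). All treated libraries were above all controls, and its share of the summed RPKM of the 41 genes went from 14.4%, 13.1% and 14.1% to 22.6%, 22.2% and 22.7%. The Hspa9 partners Timm44 and Dnajc19 moved the other way. Timm44, the tether of Hsp70 to TIM23, went from 63.1, 63.0 and 57.6 RPKM to 35.3, 38.8 and 38.1 RPKM (1.64-fold lower, log2 fold change −0.70, SE 0.059, adjusted p = 7.19e-07). Dnajc19, a J protein of the inner membrane, went from 24.9, 24.4 and 26.1 RPKM to 12.8, 14.9 and 11.01 RPKM (1.95-fold lower, log2 fold change −0.92, SE 0.090, adjusted p = 3.61e-06), with 53.9% of its transcript shared with the pseudogene Dnajc19-ps. No treated library of either reached the lowest control.

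The nucleotide exchange factors of mitochondrial Hsp70 moved in opposite directions. Grpel1, the more abundant RNA (chromosome 5, 36464998 to 36474080), was at 65.1, 58.4 and 58.8 RPKM in CTL and at 42.1, 40.6 and 40.9 RPKM in 4CBA (60.8 ± 3.73 to 41.2 ± 0.763 RPKM, SD, n = 3 each, 1.48-fold lower, log2 fold change −0.55, SE 0.056, adjusted p = 4e-06). Grpel2, its paralogue (chromosome 18, 61712424 to 61726325), was at 3.90, 3.42 and 3.40 RPKM in CTL and at 10.3, 10.2 and 9.64 RPKM in 4CBA (3.57 ± 0.282 to 10.1 ± 0.373 RPKM, SD, n = 3 each, 2.82-fold higher, log2 fold change 1.28, SE 0.077, adjusted p = 3.67e-08). The libraries of each group were close to each other and the groups were far apart for both genes. As a share of their joint RPKM, Grpel2 went from 5.65%, 5.54% and 5.46% to 19.7%, 20.2% and 19.1%, so that Grpel1 stayed the higher of the pair in every library. The log2 ratio of Grpel1 to Grpel2 differed by −1.82 (SE 0.027) between the groups, the widest shift among the 18 pairs compared.

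In the matrix, 3 of 4 folding genes were lower. Trap1, the mitochondrial Hsp90 (chromosome 16, 4039971 to 4077827), was at 114, 104 and 96.4 RPKM in CTL and at 49.1, 47.2 and 49.5 RPKM in 4CBA (105 ± 8.66 to 48.6 ± 1.24 RPKM, SD, n = 3 each, 2.15-fold lower, log2 fold change −1.09, SE 0.063, adjusted p = 2.57e-08), the largest fall among the 40 genes tested. The treated libraries lay close together and far below the lowest control. Hspd1, the chaperonin Hsp60, went from 153, 150 and 154 RPKM to 112, 119 and 102 RPKM (1.37-fold lower, log2 fold change −0.46, SE 0.060, adjusted p = 3.2e-05). Hspe1, its lid Hsp10, went from 56.9, 60.1 and 66.5 RPKM to 40.2, 50.2 and 46.3 RPKM (1.34-fold lower, log2 fold change −0.42, SE 0.084, adjusted p = 0.000992). Groups did not overlap for either chaperonin gene. The paper's qPCR time course reported HSP60 RNA upregulated with 4CBA, with a peak followed by a decline. The paper puts the qPCR peak at the treatment time it gives for its RNA sequencing, whereas the labels give 48 h. Which time applies was not settled. If the paper's time applies, these libraries fall at the reported HSP60 peak, and Hspd1 RNA was lower than control in them. Transcripts of other annotated genes share 71.1% of the Hspd1 transcript and 81.0% of the Hspe1 transcript, and for Hspe1 they include Hspd1. Dnaja3, a J protein partner of mitochondrial Hsp70, moved with Hspa9, from 64.5, 61.2 and 61.8 RPKM to 79.7, 85.8 and 76.1 RPKM (1.29-fold higher, log2 fold change 0.36, SE 0.057, adjusted p = 0.00014), with every treated library above every control.

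Hspd1 and Hspe1 lie head to head on chromosome 1 and start in opposite directions. The Hspe1 start site of the RefSeq table is at 55088148 on the plus strand. Those of Hspd1 are at 55088243 and 55087932 on the minus strand. The CHOP, ETS and heat shock matches of Hspd1 all come from the window of the start at 55087932, which lies inside the annotated gene. The annotated spans of both genes overlap (55077835 to 55088243 for Hspd1, 55088132 to 55091307 for Hspe1). Since no strand option is named in the counting command, reads of the overlap cannot be told apart. The ratio of Hspd1 to Hspe1 RPKM was 2.69, 2.50 and 2.32 in CTL and 2.79, 2.37 and 2.21 in 4CBA, with overlapping groups (difference in log2 ratio −0.04, SE 0.12, exact permutation p = 0.8, two-sided). The pieces below lie in the stretch shared by the Hspe1 window and the window of the Hspd1 start at 55087932. The first piece holds heat shock letters beside overlapping heat shock and ETS letters. The second holds the CHOP core, and all these letters are in capitals, on the plus strand. The pieces are shown because both chaperonin genes were lower with 4CBA.
Hspe1, chr1:55088058-55088087, plus strand: gTTCTAGAAcCTTCCGGAAGgccccgcgcg
Hspe1, chr1:55087937-55087966, plus strand: acgccggggcccTGCAATctgcatgcggcg

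All 3 peptidase genes of the rule were lower. Pmpca and Pmpcb encode the subunits of the processing peptidase that cuts off presequences. Pmpca went from 47.9, 44.0 and 47.1 RPKM to 33.7, 32.4 and 34.5 RPKM (1.38-fold lower, adjusted p = 1.62e-05), and Pmpcb from 144, 134 and 133 RPKM to 101, 92.4 and 85.5 RPKM (1.47-fold lower, adjusted p = 1.3e-05). Mipep, which trims some proteins further, went from 15.2, 13.4 and 16.0 RPKM to 10.4, 11.97 and 10.5 RPKM (1.35-fold lower, adjusted p = 0.000697). No treated library of the 3 genes overlapped with the controls.

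Both genes of the disulfide relay were called higher, by small amounts, as were 38.4% of all genes tested. Chchd4, the oxidoreductase Mia40 that traps cysteine-rich proteins in the intermembrane space, was at 25.1, 22.6 and 24.8 RPKM in CTL and at 26.8, 28.4 and 26.4 RPKM in 4CBA (1.13-fold higher, log2 fold change 0.17, SE 0.060, adjusted p = 0.0264). Gfer, the sulfhydryl oxidase that recharges it, went from 22.8, 22.3 and 19.4 RPKM to 26.7, 26.1 and 24.9 RPKM (1.203-fold higher, log2 fold change 0.26, SE 0.068, adjusted p = 0.00489). The groups were apart by less than 2 RPKM for Chchd4, and its call was lost, among other settings, with libraries scaled to the same median (0.05, adjusted p = 0.411), with the authors' log2 values (adjusted p = 0.226), without CTL replicate 2 or without 4CBA replicate 2 (adjusted p = 0.108 each). That of Gfer was lost with scaling to the same median alone (0.15, adjusted p = 0.0764). Transcripts of Dst share 32.3% of the Gfer transcript.

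The prohibitins, ring-forming scaffold proteins of the inner membrane that hold chaperone and protease partners, were both lower. Phb went from 19.3, 17.9 and 19.8 RPKM to 10.1, 11.9 and 9.82 RPKM (1.79-fold lower, log2 fold change −0.79, SE 0.077, adjusted p = 2.5e-06), with 51.5% of its transcript shared with other annotated genes. Phb2 went from 189, 185 and 162 RPKM to 113, 119 and 121 RPKM (1.52-fold lower, log2 fold change −0.60, SE 0.064, adjusted p = 6.01e-06). Groups did not overlap for either gene. The proteins assemble together, and the RPKM of Phb2 was far above that of Phb in every library.

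Pairs of paralogues and partners were compared by their log2 ratio within each library. Of the 18 pairs, 9 had groups that did not overlap, each with an exact permutation p = 0.1, which is the smallest that 3 against 3 libraries can give (adjusted over the 18 pairs 0.2), so no pair could pass the threshold. No such share was computed for other pairs of genes, and since 31.8% of single genes lay wholly lower and 40.9% wholly higher, the count of 9 says nothing particular about these pairs. Beside Grpel1 and Grpel2, the ratio of Hspa9 to Hspd1 went from 2.41, 2.13 and 2.23 to 4.01, 3.78 and 4.22 (difference in log2 ratio 0.82, SE 0.069), and that of Hspd1 to Trap1 shifted by 0.63 (SE 0.11). Of the matrix chaperones, Hspa9 was therefore higher, Hspd1 lower and Trap1 lower still in relation to one another. Timm17a to Timm17b shifted by −0.39 (SE 0.062) and Timm10 to Timm10b by 0.45 (SE 0.088). The others without overlap were Tomm40 to Tomm40l (0.22), Timm9 to Timm10 (−0.28), Timm8a1 to Timm13 (0.36) and Timm23 to Timm50 (0.75), the last of which rests on the uncertain Timm23. Without 4CBA replicate 3 the shift was 0.13 for Tomm40 to Tomm40l and −0.18 for Timm9 to Timm10, and without 4CBA replicate 2 it was 0.19 for Timm8a1 to Timm13. The other 9 pairs had overlapping ratios, among them partners in one complex or relay: Pmpca to Pmpcb differed by 0.10 (SE 0.087, exact permutation p = 0.3), Phb to Phb2 by −0.19 (SE 0.13, p = 0.3), Chchd4 to Gfer by −0.09 (SE 0.098, p = 0.4) and Timm22 to Timm29 by 0.05 (SE 0.094, p = 0.7). These p-values do not show that the partners changed alike.

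**Figure D4:**
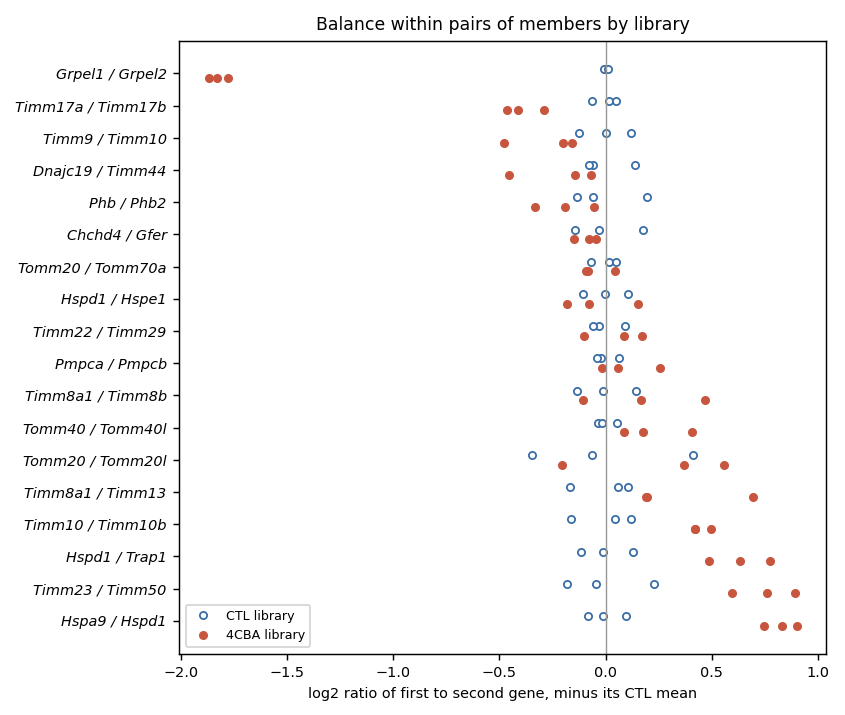
Each row is a pair, and each point is the log2 ratio of the first to the second gene in 1 library (from log2(RPKM + 1)), minus the mean of the CTL libraries, open for CTL and filled for 4CBA. The filled points of Grpel1 / Grpel2 lie near −1.82 and those of Hspa9 / Hspd1 near 0.82, whereas those of Hspd1 / Hspe1 lie among the open points.

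Lists set beside these genes gave the surroundings. Over all genes tested, 30.0% were called lower and 38.4% higher. Of 19 related genes for sorting, assembly and insertion, 11 were lower, 2 higher and 6 did not pass (median log2 fold change −0.33). They included Aifm1, a flavoprotein that works with Chchd4 (2.27-fold lower), Romo1, a TIM23 subunit (1.96-fold lower), and Samm50, the core of the outer membrane sorting machinery (1.89-fold lower), while Hscb, a J protein for iron-sulfur clusters, and Dnlz, a helper of Hspa9, were 1.64-fold and 1.21-fold higher. Of 78 mitochondrial ribosomal protein genes, 77 were tested, and 61 (79.2%) were lower and 4 higher (median −0.45), beside 30 of 40 import and chaperone genes. Of 8 mitochondrial proteases, 6 were lower, led by Oma1 (1.68-fold) and Spg7 (1.55-fold), and 1, Lonp1 of the matrix, was 1.87-fold higher. Clpp, which the paper's qPCR course reported upregulated, was among the lower ones (1.15-fold, adjusted p = 0.0108 from limma). Of 12 chaperones of the cytosol and endoplasmic reticulum, 8 were higher, led by Hspa5 (2.46-fold) and Hsp90ab1 (1.56-fold), and 2 were lower, Dnaja2 (1.16-fold) and Tcp1 (1.14-fold), with a median of 0.27.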

How the data were processed

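Messenger RNA was sequenced in 3 CTL and 3 4CBA libraries, and each sample's title gave its group and number. Reads were aligned by the authors with STAR to mm10 and counted over exons with HOMER, 1 RefSeq isoform per gene; the sources used here give no version of either tool. The RPKM values deposited by the authors are scaled by exon length and library depth. Per the file headers, 24 libraries were processed together, of which 6 are columns, and no strand option is named although the labels give a stranded kit. A second table deposited by the authors holds log2 values of normalized counts, whose transform is not named, used as an alternative only. Its columns of the authors' own DESeq2 comparison (log2 fold change, p, adjusted p) were not used. The tables list different isoforms for some genes and were joined by symbol.

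Genes that reached 0.5 RPKM in 3 or more libraries entered a test with limma 3.58.1 (R 4.3.3, trend and robust, two-sided) on log2(RPKM + 1), with Benjamini-Hochberg adjustment over 12659 genes and a threshold of 0.05. A pseudocount of 1 understates changes of low genes. The test was checked on simulated data. Folds in the text are ratios of mean RPKM. Pairs were compared with an exact permutation test (scipy 1.17.1). Depth was estimated as 9360000 to 12200000 reads from the spacing of low RPKM values, which is approximate. Shared sequence was counted from BLAST matches of at least 95% identity and 100 bases to GENCODE transcripts.

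Every gene of the rule is named. All library values were printed for core subunits, chaperones, small TIM genes and the 5 largest changes per direction. From the other lists up to 2 genes per direction were named, plus Samm50, Agk, Clpp and the markers Ucp1, Fabp4 and Acta1. The genes and lists were chosen with earlier results of these data known. Alternatives were another pseudocount, no filter, a stricter filter, median scaling, no robust estimation, the authors' log2 values, a replicate block and leaving out each library.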

Additional observations from a re-analysis of the deposited data

How the results depend on the processing

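Of the 40 genes tested, 33 kept their direction and their side of the threshold in all of the 13 alternatives in which they passed the filter, and 7 (Chchd4, Gfer, Timm22, Timm10, Timm8a1, Tomm20l and Timm23) did not in at least 1. With libraries scaled to the same median, the median log2 fold change of the 40 genes was −0.57, with 31 lower and 4 higher, Timm10 was called lower (−0.19, adjusted p = 0.0298 from limma), and the share of higher among all called genes was 45.7% against 56.1%. With a pseudocount of 0.1 the Grpel1 to Grpel2 difference was −2.03. Replicate numbers did not pair the samples: deviations of same-numbered libraries correlated at −0.067, −0.033 and −0.027, and others at −0.004 to 0.036. With the replicate block 30 genes were lower and 5 higher, Chchd4 being lost (adjusted p = 0.0519). Leaving out 1 library in turn moved the log2 fold change of Timm23 between −0.1253 and 0.0757, the Hspd1 to Hspe1 difference between −0.13 and 0.04 and that of Timm22 to Timm29 between −0.0089 and 0.1288, with changes of sign; none of these was called. The causes were not tested. Timm23, Tomm20l and Timm8a2 had under 20 estimated reads in each library, which limits the precision of their values.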
